A study of Mus musculus with 20 samples.

Results

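The Tet3-null paternal pronuclei studied here were 2 libraries from untreated zygotes (CKO-Pat, replicates 1 and 2), set against 2 sperm libraries, 4 of the 20 libraries of the series. They were chosen by their titles alone. DNA methylation was read by reduced representation bisulfite sequencing (RRBS), in which MspI cuts DNA at CCGG and the CpG-rich short fragments are read, and was compared at the 1115905 autosomal positions that all 4 libraries covered with at least 5 reads, of 2901850 listed in any of them. Positions were joined into 100-bp tiles (195762 tiles with at least 2 such positions) and 1000-bp tiles (125490), with mm9 coordinates. A tile's level is the methylated share of its calls, and the mean over tiles gives each tile the same weight.

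The CKO-Pat zygotes came from superovulated Zp3-Cre Tet3 f/- females, in which Cre is made by the growing oocyte, so the egg lacked Tet3 while the sperm did not. Methylation calls do not show the deletion itself, which was taken from the labels. WT-Pat zygotes came from Tet3 f/f females, both of 7 to 10 weeks. All eggs were fertilised in vitro with cauda epididymal sperm of adult C57BL/6J males, and the sperm libraries carry the WT label. Mock zygotes had no inhibitor, whereas CKO-Pat-Aphi and WT-Pat-Aphi zygotes had 3 µg/ml aphidicolin, an inhibitor of replicative DNA polymerases, from 5 h after fertilisation. Pronuclei were taken by micromanipulation at 12 h, and paternal and maternal ones were told apart by their size and their distance from the second polar body. The pronuclei of a library were pooled. The labels do not say whether replicate libraries had separate animals or fertilisations behind them, so their spread may be technical.

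After fertilisation the genome brought by sperm is repackaged from protamines onto histones in the paternal pronucleus, and much of its 5-methylcytosine is lost before the first cleavage. Tet3, supplied by the egg, oxidises 5-methylcytosine to 5-hydroxymethylcytosine and further forms, and replication without maintenance methylation dilutes the mark on newly made strands. Bisulfite sequencing reads 5-methylcytosine and 5-hydroxymethylcytosine alike as methylated, and reads the further oxidised forms as unmethylated, so the levels below are of both protected forms together.

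The 2 CKO-Pat libraries held 57891812 and 68056783 CpG calls, against 54486987 and 53065048 in sperm. A 100-bp tile had a median of 136 and 165 calls in the CKO-Pat libraries, against 126 and 123 in the sperm libraries. CKO-Pat replicate 1 stood apart from replicate 2 in its sex chromosomes. The X chromosome took 1.61% of its calls against 0.949% in replicate 2, with 1.07% in both sperm libraries, and the Y chromosome took 0.00752% against 0.0186%, with 0.0111% and 0.0117% in sperm. Mitochondrial calls, abundant in egg cytoplasm, made up 1.32% and 1.16% of the CKO-Pat libraries, against 0.00213% and 0.0026% of the sperm libraries, with 20.0% and 19.4% in the oocyte libraries. Each of these shares had a 95% Wilson interval under 0.02 percentage points in half-width. These intervals, and all intervals and upper limits on tiles below, cover counting error only, since reads copied by PCR are not independent molecules. Results on tiles where sperm and oocyte differ are therefore given for each CKO-Pat library. The CKO-Pat and WT-Pat files list chromosomes in sorted order and the sperm, oocyte and aphidicolin files do not, so a difference in the authors' processing and the differences from sperm or aphidicolin cannot be told apart. It does not separate CKO-Pat from WT-Pat.

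The first comparison asked how much of the sperm's methylation was gone from paternal pronuclei made without Tet3. Tiles highly methylated in sperm were those of at least 75% in the mean of the 2 sperm libraries (78524 tiles or 40.1% of all). They stood at 61.9% and 64.5% in the CKO-Pat libraries, against 95.9% in each sperm library. The groups did not overlap, and both CKO-Pat libraries were lower. The mean was 63.2% ± 1.84 in CKO-Pat and 95.9% ± 0.00471 in sperm (SD, n = 2 each), a difference of -32.8 percentage points, and the 4 differences between single libraries lay between -34.1 and -31.5. With 2 libraries against 2 the exact two-sided permutation test cannot go below p = 0.333, which is what it gave here, or 0.384 after Benjamini-Hochberg adjustment over 38 such tests of means. The same holds for each class mean below unless another p is given, so separation is stated from the library ranges. In 1000-bp tiles the 77680 highly methylated tiles stood at 61.9% and 64.7% in CKO-Pat, against 95.9% and 96.0% in sperm.

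**Figure D1:**
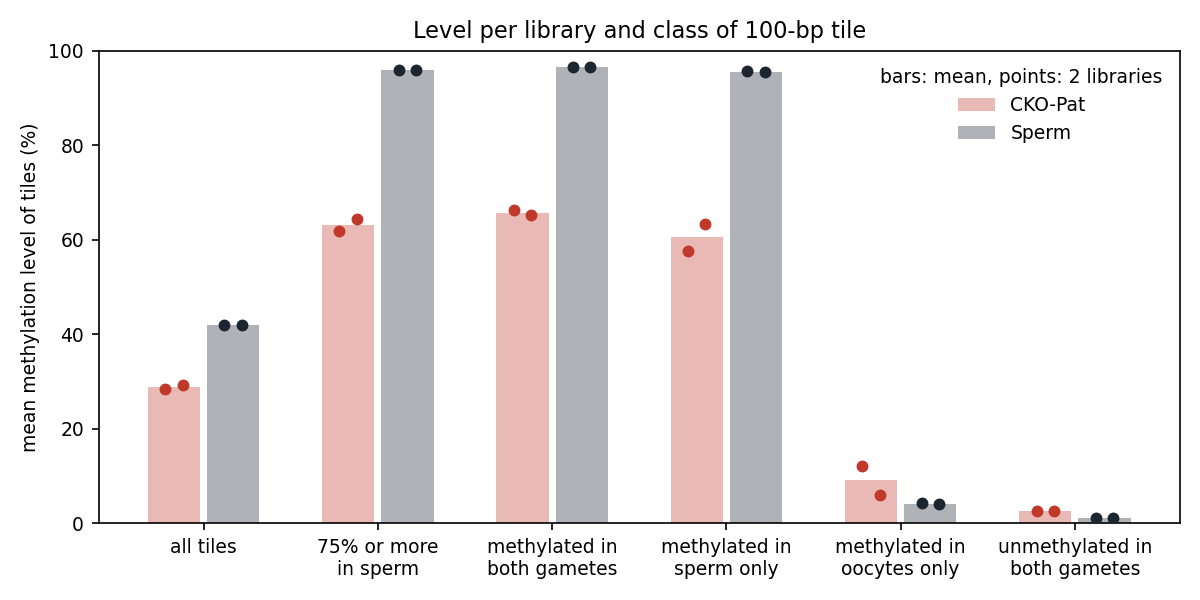
Mean methylation level of 100-bp tiles (percent, vertical axis) in each library, by the methylation of the tile in sperm and oocytes. Each point is 1 library and each bar the mean of 2. Where sperm was methylated the CKO-Pat libraries lie between 57.7% and 66.2% and both sperm libraries near 96%, and in tiles methylated in oocytes alone the 2 CKO-Pat libraries are apart, at 12.2% and 5.89%.

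In CKO-Pat replicate 2, tiles methylated in both gametes lost nearly as much as tiles methylated in sperm alone, whereas replicate 1 lost more in those of sperm alone. The 29571 tiles methylated in both gametes stood at 66.2% and 65.1% in CKO-Pat, against 96.5% in each sperm library, a difference of -30.8 points with a range of -31.4 to -30.3. The 34010 tiles methylated in sperm and at most 25% in oocytes stood at 57.7% and 63.4% in CKO-Pat, against 95.6% in each sperm library, a difference of -35.1 points with a range of -37.9 to -32.2. Within a library, tiles methylated in both gametes exceeded those of sperm alone by 8.55 and 1.75 points in CKO-Pat replicates 1 and 2, against 0.862 and 0.938 in sperm. The gap was thus larger in both CKO-Pat libraries than in either sperm library, by a margin that ranged from 0.808 to 7.68 points.

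The low level of CKO-Pat replicate 1 in tiles of sperm alone had its mirror in tiles methylated only in oocytes. The 5517 tiles methylated in oocytes (95.3% and 95.4%) and low in sperm stood at 12.2% and 5.89% in CKO-Pat replicates 1 and 2, against 4.21% and 4.09% in sperm. The mean difference was 4.89 points with a range of 1.69 to 8.09, so the size of the rise rested on replicate 1. Without replicate 1 it was 1.74 points and without replicate 2 it was 8.04. Replicate 1 was also the library with more X and fewer Y calls than replicate 2, and the part of that difference in these levels was not tested. On tiles methylated in both gametes, where the maternal and paternal origins have the same starting level, replicate 1 was 1.08 points above replicate 2. Finer bins of the oocyte level within tiles highly methylated in sperm gave the same order. Replicate 1 climbed with the oocyte level, at 57.1% for oocyte levels of 0 to 5% (24152 tiles), 64.0% for 25 to 75% (7061 tiles) and 66.2% for 95 to 100% (22737 tiles), whereas replicate 2 stood at 62.9%, 67.5% and 65.2% in the same bins.

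Tiles unmethylated in both gametes, 46.7% of all, kept low levels. They stood at 2.59% and 2.61% in CKO-Pat, against 1.19% and 1.18% in sperm, a difference of 1.42 points whose range of 1.40 to 1.43 did not reach 0. The median difference over these tiles was 0. Both CKO-Pat libraries were below both sperm libraries in 16.5% of these tiles, against 38.8% of all 100-bp tiles. They were above both sperm libraries in 6.35%, against 5.19% of all. These shares were not tested, so neither is read as a shift. At mitochondrial positions, in DNA that carries little CpG methylation, methylated calls were 0.257% and 0.256% of 766752 and 791051 calls in CKO-Pat. The sperm shares were 15.2% and 1.16%, of only 1159 and 1381 calls.

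The level left in CKO-Pat followed the level in sperm over the whole range above 25%. Tiles of 25 to 50% in sperm (4942 tiles) stood at 26.5% and 27.1% in CKO-Pat, against 37.1% and 36.5% in sperm. Those of 50 to 75% (5380 tiles) stood at 43.0% and 44.1% in CKO-Pat, against 63.6% and 63.0% in sperm. Those of 90 to 100% (71967 tiles) stood near 62% and at 64.9% in CKO-Pat, against 97.0% in sperm. As a share of the sperm level in the bin, CKO-Pat replicates 1 and 2 kept 72.1% and 73.7% at 25 to 50%, 67.9% and 69.7% at 50 to 75%, 67.4% and 70.8% at 75 to 90%, and 64.3% and 66.9% at 90 to 100%. At 5 to 25% (8678 tiles) they kept 94.0% and 88.0%. The share kept was thus lowest, in both libraries, in the bin most methylated in sperm.

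**Figure D2:**
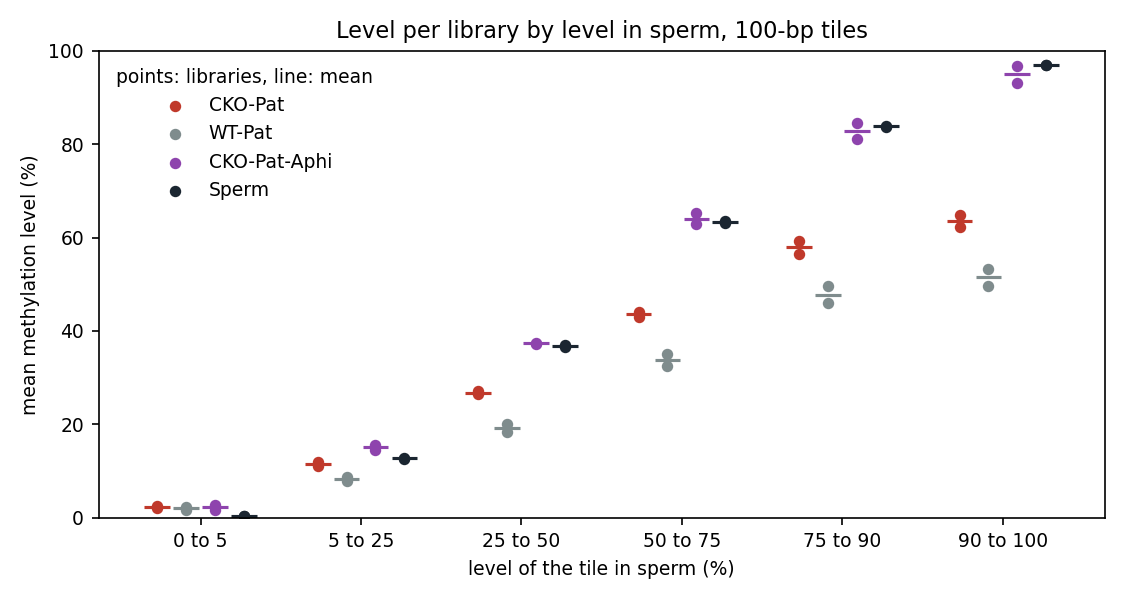
Mean level of 100-bp tiles (percent) in paternal pronuclei and sperm, by the tile's level in sperm (percent, horizontal axis). Points are single libraries. CKO-Pat lies below sperm in the bins from 25 to 100%, by the most at 90 to 100%, where sperm is at 97.0%.

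The mean over highly methylated tiles hid a wide spread of single tiles. Among the 78524 tiles of at least 75% in sperm, the median was 64.9% and 68.0% in the CKO-Pat libraries, against 97.3% in each sperm library. The quartiles ran from 45.3% to 83.7% in CKO-Pat replicate 1 and from 48.3% to 88.4% in replicate 2. In CKO-Pat, 52.0% and 47.6% of these tiles lay between 25 and 75%, 36.0% and 41.0% lay at 75% or more, and 12.02% and 11.5% at 25% or less. The sperm libraries had 99.3% of the tiles at 75% or more.

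**Figure D3:**
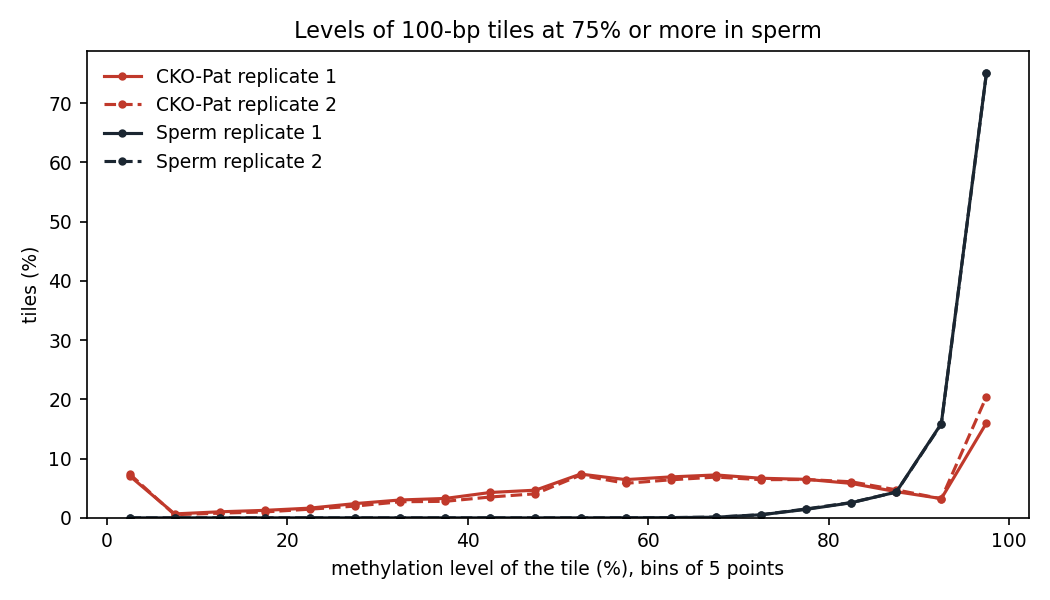
Share of the 100-bp tiles of at least 75% in sperm (percent of tiles, vertical axis) by methylation level (percent, horizontal axis), 1 line per library. The CKO-Pat libraries spread over all levels, with 52.0% and 47.6% of tiles between 25 and 75%, and sperm is packed near 100%.

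A tile's level in one CKO-Pat library said little about its level in the other. Over the highly methylated tiles the difference between the 2 CKO-Pat libraries had an SD of 38.4 points, against 4.41 between the 2 sperm libraries. Across these 78524 tiles, which share the same sperm source and are not independent replicates, Pearson's r between replicates was 0.115 in CKO-Pat and 0.591 in sperm. In 1000-bp tiles it was 0.137 in CKO-Pat and 0.653 in sperm. In tiles unmethylated in both gametes r was 0.549 in CKO-Pat and 0.811 in sperm. In the model below the mean dispersion per 100-bp tile, which is 1 for pure counting noise, was 33.0 in CKO-Pat and 2.95 in sperm. The median calls per tile were higher in CKO-Pat, and this dispersion can grow with the number of calls. The mean dispersion was 47.4 in WT-Pat, 51.0 in CKO-Pat-Aphi and 40.4 in WT-Pat-Aphi. Each mean took only tiles in which both libraries of the group expected 5 or more calls of both kinds. These were 97392 tiles in CKO-Pat, 35446 in sperm, 51354 in WT-Pat, 30218 in CKO-Pat-Aphi and 17824 in WT-Pat-Aphi. The means thus cover different tiles and do not rank the groups by scatter.

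The scatter was shared by positions close to each other, and hardly by the 2 cytosines of a CpG, which lie on opposite strands. For pairs of positions 2 to 12 bp apart, both of at least 75% in sperm (68978 pairs), r within a library lay between 0.646 and 0.696 in CKO-Pat replicate 1 and between 0.640 and 0.688 in replicate 2, against 0.352 to 0.435 and 0.365 to 0.479 in the sperm libraries. For the same pairs taken across the 2 CKO-Pat libraries r was between 0.085 and 0.140. At 50 bp r was 0.452 and 0.421 in CKO-Pat, against 0.298 and 0.296 in sperm. At 51 bp r was 0.0694 and 0.0967 in CKO-Pat, against 0.361 and 0.328 in sperm. The number of covered pairs also fell at this step, from 4146 at 50 bp to 1675 at 51 bp. The likeness of neighbours in CKO-Pat thus fell sharply between 50 and 51 bp, where the pairs themselves changed, and that in sperm did not. The read length was not given in the sources used here, and whether such pairs lie on the same reads was not tested.

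**Figure D4:**
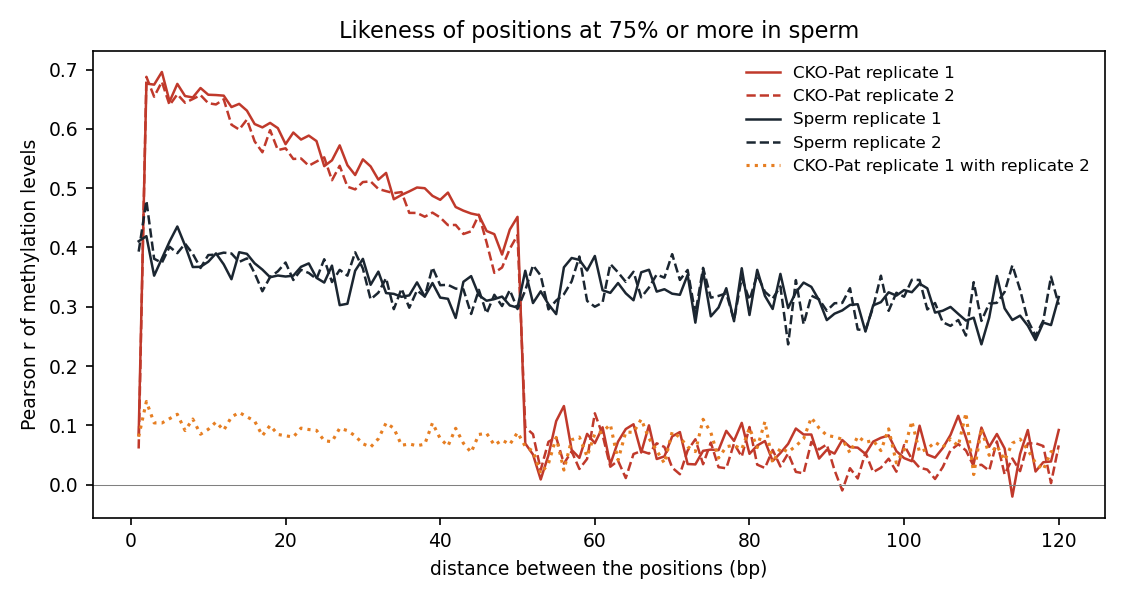
Pearson's r between the levels of 2 positions (vertical axis) against their distance in bp (horizontal axis), for positions of at least 75% in sperm, 1 line per library, with pairs taken across the 2 CKO-Pat libraries as a further line. Within CKO-Pat r is near 0.45 at 50 bp and below 0.10 at 51 bp, while in sperm it is near 0.30 on both sides.

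The strands were compared directly at 22124 CpGs, of 169727 with both cytosines covered. In these 22124 the sperm level, averaged over the 2 cytosines, was at least 75%. The means of the 2 strands were alike in every library, at 63.1% and 62.7% in CKO-Pat replicate 1. Single CpGs were not. The mean absolute difference between strands was 33.5 and 34.8 points in CKO-Pat, against 3.94 and 4.01 points in sperm. Strands at least 75 points apart made up 9.52% and 11.99% of these CpGs in CKO-Pat, against 0% and 0.00452% in sperm. Both strands were at 90% or more at 9.43% and 13.3% of the CpGs in CKO-Pat, against 83.5% and 83.0% in sperm. The correlation between strands across CpGs was 0.087 and 0.0626 in CKO-Pat, against 0.435 and 0.420 in sperm. A strand had a median of 45 and 54 calls in CKO-Pat, against 42 and 41 in sperm, so reads were no fewer in CKO-Pat. The protocol names about 20 pronuclei as a typical input, amplified by 21 cycles of PCR. The number of starting molecules in each library, and its part in this scatter, was not tested.

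Over large windows the loss was general. In all 253 autosomal windows of 10 Mb with at least 20 highly methylated 100-bp tiles, both CKO-Pat libraries were below sperm, with mean differences of -37.1 to -21.4 points and a median of -32.7. Across windows, which share libraries, r between the 2 CKO-Pat libraries' differences was 0.558 at 10 Mb, 0.216 over 1170 windows of 1 Mb and 0.227 over 419 windows of 100 kb. The greatest loss was at chr9:40000001-50000000 (681 tiles), at 58.5% and 60.6% in CKO-Pat, against 96.6% and 96.7% in sperm. The least was at chr1:1-10000000 (62 tiles), at 70.6% and 73.2% in CKO-Pat, against 93.3% and 93.5% in sperm. In that window the 2 CKO-Pat libraries were above their genome means of 61.9% and 64.5%, and sperm was below its own. Next in order of least loss was chr3:10000001-20000000 (77 tiles), at 72.9% and 69.0% in CKO-Pat, against 93.1% and 93.0% in sperm. By chromosome the CKO-Pat level of such tiles ran only from 60.7% on chromosome 2 to 63.6% on chromosome 5 in replicate 1, and from 63.1% on chromosome 2 to 66.0% on chromosome 10 in replicate 2.

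**Figure D5:**
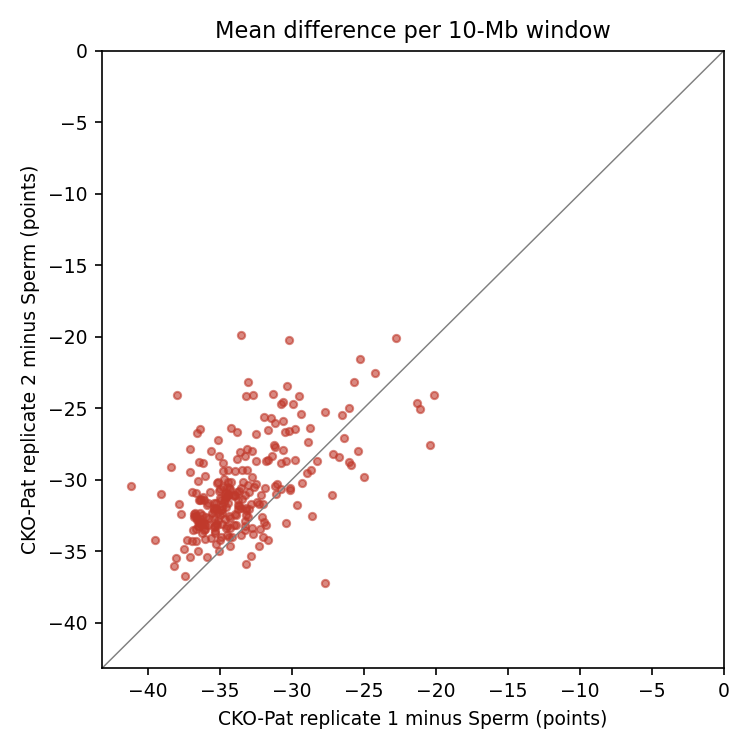
Difference from sperm (percentage points, CKO-Pat minus sperm) of CKO-Pat replicate 1 against replicate 2, 1 point per 10-Mb autosomal window with at least 20 tiles of at least 75% in sperm. All 253 windows lie below 0 in both libraries, with means between -37.1 and -21.4 points.

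In 100-bp tiles more methylation was left where positions were dense. Highly methylated tiles with 2 covered positions (45293 tiles) stood at 60.7% and 63.5% in CKO-Pat, those with 4 to 5 (11134) at 64.4% and 67.0%, those with 6 to 9 (2955) at 66.4% and 68.7%, and those with 10 to 15 (272) at 69.7% and 74.4%. The order was the same in both libraries, while sperm moved the other way, with 94.9% at 10 to 15 positions. Within tiles methylated in both gametes, where the 2 libraries were alike, the densest tiles (156) stood at 74.0% and 74.7% in CKO-Pat, against 65.0% and 64.3% with 2 positions. Tiles with more positions also have more calls, and the level rose with calls, at 58.0% and 60.1% for 10 to 50 calls (13003 tiles) and 67.1% and 70.4% for 400 to 1000 calls (1520 tiles). Among 100-bp tiles of 100 to 400 calls, the level was 69.9% and 73.2% with 10 to 15 positions (39 tiles) and 62.8% and 65.7% with 2 (14669 tiles). Among 1000-bp tiles of 100 to 400 calls there was no such order, with 63.0% and 64.5% at 10 to 15 positions (552 tiles) and 62.5% and 66.0% at 2 (8553 tiles).

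Single tiles were then tested. A quasi-binomial logistic model over all 10 paternal and sperm libraries, with a dispersion shared through limma, called a tile when its adjusted p was under 0.05 and the groups differed by 10 points or more. Of the 195762 tiles of 100 bp it called 61 lower in CKO-Pat (0.0312% of all tested) and 173 higher (0.0884%). Of the 125490 tiles of 1000 bp it called 7290 lower (5.81%) and 1008 higher (0.803%). Without any 1 of the 4 libraries the counts were far smaller, as 0 to 1 tiles of 100 bp were lower and 0 to 3 higher, and 14 to 27 of 1000 bp were lower and 66 to 172 higher. Fitted to the 4 libraries alone, the model called 3 lower and 35 higher tiles of 100 bp. The balance of directions at 100 bp depended on the model, as a separate dispersion for sperm and pronuclei gave 6634 lower and 940 higher, and limma on arcsine square roots gave 8682 lower and 626 higher.

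By class, 1000-bp tiles were called lower about as often whether or not the oocyte was methylated. They made up 2972 of 29713 tiles methylated in both gametes (10.0%) and 3633 of 35911 methylated in sperm alone (10.1%), against the 5.81% of all tiles. By level alone, both CKO-Pat libraries were below both sperm libraries in 62.1% of all 1000-bp tiles and in 80.0% of the highly methylated ones. The same held for 38.8% of all 100-bp tiles and 68.0% of the highly methylated ones. Both CKO-Pat libraries were above both sperm libraries in 5.19% of all 100-bp tiles and 5.86% of all 1000-bp tiles, and in 2.76% and 1.57% of the highly methylated ones. A class of high sperm level leaves more room to fall, so these shares describe the class and were not tested against others.

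The most reduced 1000-bp tiles were shallow. The 5 called tiles with the largest differences, each -100 points, ranked among themselves by adjusted p, stood at 0% in both CKO-Pat libraries, against 100% in both sperm libraries. The first, chr13:24723001-24724000, had 0 methylated of 52 and of 104 calls in CKO-Pat, which allows up to 5.77% and 2.88% by counting error alone, against 42 and 40 calls in sperm, all methylated (adjusted p = 0.0247, quasi-binomial model with limma). It stood at 7.41% and 0% in WT-Pat and at 81.8% and 70.0% in oocytes. At chr6:72165001-72166000 (adjusted p = 0.0254, same model) both WT-Pat libraries were at 0% too. At chr17:12328001-12329000 (adjusted p = 0.0386, same model) the WT-Pat libraries stood at 49.3% and 50.9%. The remaining 2 were chr19:5972001-5973000 and chr6:87534001-87535000, the second at 83.3% in the one WT-Pat library that covered it. None of the 5 kept its call when any 1 of the 4 libraries was left out or with the 4 libraries alone, and 1 kept it with the replicate number as a block. Ordered instead by depth, the deepest 1000-bp tile at 10% or less in both CKO-Pat libraries was chr7:93987001-93988000, at 7.84% and 0% of 153 and 231 calls in CKO-Pat, against 95.4% and 98.1% of 174 and 210 calls in sperm. The 2 CKO-Pat-Aphi libraries stood at 100% and 99.1% there.

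A smaller set of tiles was high in both CKO-Pat libraries. At 100 bp, 5437 tiles (6.92% of the highly methylated) were at 90% or more in both CKO-Pat libraries and 881 (1.12%) were at 10% or less in both. In the single CKO-Pat libraries 19.3% and 23.7% of tiles were at 90% or more, and 7.81% and 7.98% at 10% or less. Scatter between libraries alone would thus put some tiles in both sets, and how many was not tested. Both sets were picked by the CKO-Pat level, so only their other levels are of use. The 5437 tiles stood at 71.1% in WT-Pat replicate 2 and close to 68% in replicate 1 (2496 tiles covered), where all highly methylated tiles stood at 49.3% and 53.0% in replicates 1 and 2. The 881 tiles stood at 46.6% and 41.8% in WT-Pat (278 tiles covered). Oocyte levels were 56.1% and 55.8% in the 5437 tiles, 34.1% and 35.1% in the 881 tiles, and 47.2% and 47.3% in all. Both sets had fewer calls per tile than the rest, with medians of 73 and 42 against 101, and the part of depth in these levels was not tested. The 2 deepest 1000-bp tiles at 90% or more lay close together. The first, chr15:76005001-76006000, stood at 93.6% and 94.8% in CKO-Pat, against 97.8% and 98.0% in sperm. The second, chr15:76008001-76009000, stood at 90.3% and 93.4% in CKO-Pat, against 98.7% and 96.9% in sperm. At chr12:81271001-81272000, the fifth, CKO-Pat stood at 91.8% in each library and was above sperm, at 90.1% and 89.2%.

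A few tiles nearly unmethylated in sperm were methylated in CKO-Pat. There were 98287 tiles of 100 bp at 5% or less in the mean of the sperm libraries. Of these, 1313 (1.34%) were at 25% or more in both CKO-Pat libraries. The 1313 tiles had a mean of 51.6% and 54.8% in CKO-Pat, against 0.795% and 0.783% in sperm. Levels in libraries that the choice did not use were also raised, at 35.2% and 46.5% in WT-Pat (966 tiles), 42.4% and 35.3% in CKO-Pat-Aphi (916 tiles), and 47.9% and 38.6% in WT-Pat-Aphi (925 tiles). Most of these tiles were not methylated in oocytes. Of 1226 such tiles with oocyte calls, 1022 (83.4%) were at 25% or less in oocytes, where CKO-Pat stood at 50.1% and 54.0% against 1.77% and 1.97% in oocytes. A further 141 (11.5%) were at 75% or more in oocytes. Of all tiles at 5% or less in sperm with oocyte calls, 93.1% were at 25% or less and 4.47% at 75% or more in oocytes. Just outside the limit, 340 tiles at 20 to 25% in the lower CKO-Pat library stood at 29.9% and 32.7% in CKO-Pat and at 21.7% and 26.9% in WT-Pat.

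The 173 tiles called higher were of this kind. Of these, 137 were unmethylated in both gametes (0.150% of that class, against 0.0884% of all tiles) and 21 were methylated in oocytes alone (0.381% of that class). In all, 168 were at 5% or less in sperm. They stood at 59.5% and 66.9% in CKO-Pat, against 0.721% and 0.744% in sperm, values that describe the call. In libraries outside the contrast they stood at 43.5% and 59.0% in WT-Pat, 56.2% and 51.4% in CKO-Pat-Aphi and 16.5% and 17.3% in oocytes. They were deep, with a median of 496 calls per tile and library. Neighbouring called tiles joined into 131 regions, 29 of them of at least 2 tiles, whereas the 61 lower tiles all stood alone. The higher tiles had a median of 9 covered positions, and the lower tiles, fewer in number, had 5 positions and 304 calls. The part of these differences in the joining was not tested.

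Of these 29 regions, the first in order of the mean tile difference was chr9:21936201-21936500 (2 called tiles, highest adjusted p = 0.032, quasi-binomial model with limma). It stood at 86.5% and 87.8% of 281 and 534 calls in CKO-Pat, against 0% and 0.739% of 548 and 406 calls in sperm. The 95% Wilson intervals in CKO-Pat, for counting error alone, ran from 81.98% to 89.99% and from 84.8% to 90.3%, and 0 of 548 calls allow up to 0.547%. It stood at 82.7% and 71.0% in WT-Pat and at 0% in both oocyte libraries. The aphidicolin libraries were uneven there, at 18.2% and 61.5% in CKO-Pat-Aphi and 93.8% and 61.1% in WT-Pat-Aphi. The second, chr4:134953401-134954100 (4 called tiles), was methylated in oocytes too, at 86.4% and 84.8%, with 88.2% and 86.4% in CKO-Pat, against 2.74% and 1.79% in sperm. The third, chr10:93904901-93905200, stood at 77.2% and 89.8% in CKO-Pat, against 0.552% and 0.342% in sperm, with 25.4% and 38.4% in oocytes.

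Other regions of the list ranked by size differed in how firmly they held. The region chr13:31707101-31707300 had the lowest adjusted p of the 10 (0.00063, same model) and 1098 calls per tile. It stood at 56.8% and 63.7% in CKO-Pat, against 0.373% and 0.608% in sperm, with 80.3% and 60.2% in WT-Pat and 57.4% and 70.3% in CKO-Pat-Aphi. It was the one region of the 10 that kept a called tile without sperm replicate 2, and none of the 10 did so without either CKO-Pat library or without sperm replicate 1. With the replicate number as a block 8 of the 10 kept one, and with the 4 libraries alone 7. The region chr16:20651601-20651900 stood at 72.6% and 75.7% in CKO-Pat, against 0.066% and 0.0709% in sperm, and at 0% in both oocyte libraries. The region chr7:26460001-26460200 was highly methylated in oocytes, at 75% and 77.1%, with 59.1% and 78.1% in CKO-Pat, against 0% and 0.348% in sperm. Of the remaining 4 regions, chr8:25706001-25706300, chr7:150623701-150623900 and chr19:45823601-45823900 were below 7% in both oocyte libraries, and chr5:121056501-121056700 was at 70.3% and 62.9%.

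Among 1000-bp tiles the largest rise was at chr7:49847001-49848000, at 100% and 99.7% of 220 and 292 calls in CKO-Pat, against 0% of 128 and of 122 calls in sperm (adjusted p = 2.72e-05, same model), which allows up to 2.34% and 2.46% in sperm. WT-Pat stood there at 100% and 90.1%, CKO-Pat-Aphi at 100% and 50%, and both oocyte libraries at 0%. At chr4:100240001-100241000 CKO-Pat stood at 94.6% and 100%, against 1.53% and 1.24% in sperm, with 100% in both oocyte libraries. WT-Pat stood there at 75.7% and 83.3%, CKO-Pat-Aphi at 100% and 0%, and the one WT-Pat-Aphi library that covered it at 33.3%. Of the 5 tiles of 1000 bp with the largest rises, all kept the call with the replicate number as a block, 4 kept it with the 4 libraries alone, 2 kept it without sperm replicate 1, 2 without sperm replicate 2, and none without either CKO-Pat library.

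The comparison with WT-Pat, which shares no library with CKO-Pat, asked how the level left without Tet3 differed from that left in WT. On the 42584 highly methylated tiles that both WT-Pat libraries also covered with at least 10 calls, CKO-Pat stood at 62.7% and 65.5%, against 49.3% and 53.0% in WT-Pat. Both CKO-Pat libraries were above both WT-Pat libraries, by 12.9 points on average, with a range of 9.68 to 16.2 over single libraries. In tiles methylated in both gametes (16944), where CKO-Pat replicate 1 did not stand apart, CKO-Pat stood at 67.2% and 66.3%, against 49.1% and 53.1% in WT-Pat, a difference of 15.6 points (13.2 to 18.1). In tiles methylated in sperm alone (19167) CKO-Pat stood at 58.3% and 64.3%, against 48.4% and 52.2% in WT-Pat, a difference of 10.9 points (6.04 to 15.8). At partly methylated tiles the order was the same, with 26.6% and 27.1% in CKO-Pat, against 18.3% and 20.2% in WT-Pat, at 25 to 50% in sperm. Tiles unmethylated in both gametes stood at 2.47% in each CKO-Pat library, against 2.02% and 2.57% in WT-Pat, and these groups overlapped (exact permutation p = 1, with a difference of 0.176 points and a range of -0.105 to 0.456).

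Fewer highly methylated tiles were at the low end in CKO-Pat. In CKO-Pat 12.02% and 11.5% of highly methylated tiles stood at 25% or less, against 35.6% and 24.1% in WT-Pat, whose libraries needed only 10 calls per tile and covered fewer tiles. At 90% or more stood 19.3% and 23.7% of the tiles in CKO-Pat, against 27.4% and 16.7% in WT-Pat, so the groups overlapped at the high end. Between CKO-Pat and WT-Pat directly, the model called 0 lower (0% of 131613 tested) and 13 higher (0.00988%) tiles of 100 bp, and 13 lower (0.0138%) and 154 higher (0.164%) tiles of 1000 bp. The 1000-bp counts were 0 and 0 without either CKO-Pat library, 5 and 24 without WT-Pat replicate 1, and 4 and 92 without tiles deeper than 10 times the median. The 1000-bp counts did not fall without WT-Pat replicate 2, and with the replicate number as a block they rose to 34 and 269. Of the 13 higher tiles of 100 bp, 10 lay on chromosome 17 with a median of 62866 calls per tile and library, against 140 over all tiles. Without tiles deeper than 10 times the median, 0 of 131287 tested tiles of 100 bp were called. Of these 131287, 878 lower and 4314 higher in CKO-Pat reached an unadjusted p under 0.05 in the same quasi-binomial model. No call rests on these counts, which are not corrected for the number of tiles tested.

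The comparison with CKO-Pat-Aphi asked how far Tet3-null pronuclei without and with aphidicolin differed. On the 45124 highly methylated tiles covered in both groups, CKO-Pat stood at 62.3% and 64.8%, against 92.1% and 95.7% in CKO-Pat-Aphi. The groups did not overlap, and the difference was -30.3 points with a range of -33.4 to -27.3. From sperm, the same tiles differed by -3.77 and -0.152 points in CKO-Pat-Aphi, against -33.6 and -31.1 points in CKO-Pat. In tiles methylated in both gametes (18175) CKO-Pat stood at 66.8% and 65.3%, against 96.1% and 96.4% in CKO-Pat-Aphi. Tiles methylated in sperm alone (20340) stood at 58.1% and 63.8% in CKO-Pat, against 88.5% and 95.3% in CKO-Pat-Aphi, so that in the inhibitor group too one library was lower in this class. That library, CKO-Pat-Aphi replicate 1, was also the higher one in tiles methylated in oocytes alone (4127), which stood at 11.997% and 5.51% in CKO-Pat, against 11.6% and 6.35% in CKO-Pat-Aphi. These groups overlapped (exact permutation p = 1, with a difference of -0.215 points and a range of -6.08 to 5.65).

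On the 14179 highly methylated tiles covered in all 10 libraries the order of levels was the same. CKO-Pat stood at 64.8% and 67.6%, WT-Pat at 52.3% and 56.4%, CKO-Pat-Aphi at 91.9% and 95.7%, WT-Pat-Aphi at 91.9% and 93.7%, and sperm close to 95.7% in both libraries. CKO-Pat lay between WT-Pat and the other groups with no overlap, whereas CKO-Pat-Aphi and WT-Pat-Aphi overlapped each other. In the 2876 tiles methylated in oocytes alone, CKO-Pat stood at 12.01% and 5.17%, WT-Pat at 3.80% and 5.17%, CKO-Pat-Aphi at 11.0% and 5.81%, WT-Pat-Aphi at 5.92% and 5.19%, and sperm at 3.74% and 3.71%. The 2 libraries above 10% there were thus the first replicates of both CKO groups.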

How the data were processed

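The authors deposited, for each library, counts of methylated and unmethylated calls at each covered cytosine of a CpG on the mm9 build. Trim Galore and Bismark 0.10.1 were used, per the submitters' processing notes. The sources used here give neither the read length nor a step that removed duplicates. The members and lists were chosen with earlier results of these data known. Positions covered by at least 5 reads in each of the 4 libraries entered 100-bp and 1000-bp tiles of at least 2 positions. Classes used limits of 75% and 25% in the mean level of the sperm libraries and in that of the oocyte libraries. Means over tiles were compared by exact two-sided permutation tests with Benjamini-Hochberg adjustment. Tiles were tested by quasi-binomial logistic regression on the counts with 1 level per group over the 10 paternal and sperm libraries. The dispersion was squeezed with limma 3.58.1 (R 4.3.3), trended on depth and floored at 1 after squeezing, and F-test p-values were adjusted by Benjamini-Hochberg over all tiles. Correlations over tiles or positions carry no p.

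Regions of 100 bp were named from joined called tiles of at least 2, by mean difference, the first 10. Tiles of 1000 bp were named by difference, the first 5 in each direction with ties ordered by adjusted p, and the 5 deepest tiles kept at 90% or more, or at 10% or less, in both CKO-Pat libraries. No mm9 annotation was used here, so regions carry no gene names and the gene lists planned were not run. The files of the 8 maternal pronuclear libraries were not used. P-values measure the spread between these libraries alone. Alternatives were other read and position minimums, tile sizes, weightings, class limits, dispersions and tests, a replicate block, and leaving out each library. Those for CKO-Pat against WT-Pat tiles were chosen after the data were seen. Python 3.11.15 with numpy 2.4.6, pandas 2.3.3 and scipy 1.17.1 was used.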

Additional observations from a re-analysis of the deposited data

Results flagged for a closer look

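Between the genotypes, tested directly with the quasi-binomial model, 13 tiles of 100 bp were higher in CKO-Pat than in WT-Pat, and of 1000 bp 154 were higher and 13 lower. Without either CKO-Pat library all of these counts were 0. The deep tiles of chromosome 17 that make up most of the 13 are described with that comparison above.

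In 3 sets of 100-bp tiles both CKO-Pat libraries were below sperm and both CKO-Pat-Aphi libraries above it, and the difference between those moves was not tested. Over all 130124 tiles covered in these groups CKO-Pat differed from sperm by -11.3 and -10.7 points and CKO-Pat-Aphi by 0.104 and 0.839 points. At 5 to 25% in sperm (5868 tiles) the differences were -0.713 and -1.37 points in CKO-Pat and 2.94 and 2.03 points in CKO-Pat-Aphi. At 25 to 50% in sperm (3197 tiles) they were -10.2 and -9.33 points in CKO-Pat and 0.994 and 0.715 points in CKO-Pat-Aphi.

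Outside the autosomes, mitochondrial positions took 1.32% and 1.16% of calls in CKO-Pat, against 0.00213% and 0.0026% in sperm.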

How the results depend on the processing

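No mean reversed in any of 87 alternatives. Without any 1 library the mean differences from sperm were -13.5 to -12.6 points for all tiles, -34.1 to -31.5 for tiles highly methylated in sperm, -31.4 to -30.3 for both gametes, -37.9 to -32.2 for sperm alone, 1.41 to 1.46 for unmethylated tiles and 1.74 to 8.04 for oocyte alone, and CKO-Pat minus WT-Pat was 11.5 to 15.0. The mean over all tiles (-13.0 points) was -12.2 with 10 reads, -7.78 with 3 positions, -3.18 weighted by calls and -9.35 over positions, and the cause was not tested. It was -20.7 in 1000-bp tiles, of which 61.9% were highly methylated, against 40.1% of 100-bp tiles. Weighted by calls, highly methylated tiles differed by -30.0, both-gamete tiles by -28.3 (-29.6 with 3 positions), and CKO-Pat minus WT-Pat was 9.87. Unmethylated tiles differed by 1.40 with 3 positions, 1.60 in 1000-bp tiles, 1.72 weighted by calls, 1.28 over positions and 1.56 with limits of 90% and 10%, where the cause was not tested.

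Tile counts were less stable. Over the named regions and tiles that were called, leaving out 1 library ended the call in 75 cases and kept it in 5. For 100-bp tiles, 61 lower and 173 higher became 13 and 55 with a replicate block, 3 and 35 with the 4 libraries alone, 6634 and 940 with separate dispersions for sperm and pronuclei, 8682 and 626 with limma on arcsine square roots, and 0 and 0 with limma on log2 ratios (33882 and 3982 at an unadjusted p under 0.05). Without 1 library they were 0 to 1 and 0 to 3. For 1000-bp tiles, 7290 lower became 18941, 12733 and 0 with separate dispersion, arcsine and log2 (34258 at an unadjusted p under 0.05), and 14 to 27 without 1 library. The 1008 higher became 531 with arcsine, 0 with log2 (2056 unadjusted), 652 at 25 points, and 66 to 172 without 1 library. CKO-Pat against WT-Pat gave 13 higher tiles, 0 without deep tiles, 167 in either direction in 1000-bp tiles, and 0 to 4 without 1 library. The labels do not say whether replicate numbers pair libraries across groups. Over all tiles the replicate differences of CKO-Pat correlated at -0.0042 with those of sperm, 0.0082 with WT-Pat and 0.019 with CKO-Pat-Aphi. The scatter of single tiles between replicates could hide a shared source, so these values cannot decide the pairing. The replicate block leaves means unchanged by construction, at -32.8 for highly methylated tiles. Where a group was left with 1 library, its variance was taken from the others. Tiles of few calls and few starting pronuclei limit what a single tile can show.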
